A study of Mus musculus with 4 samples.

Results

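The 10 genes described here encode the muscle actins and the proteins that bind or move actin filaments in smooth muscle: Acta1, Acta2, Actc1, Actg2, Tagln, Cnn1, Myl9, Myh11, Tpm2 and Lmod1. They were chosen by name, and every probe set annotated to only 1 of these symbols was taken, which gave 16 of the 45037 probe sets on the array that are not controls. Each gene was represented by its brightest probe set, and all 10 were among the 12509 genes tested, of 18193 with a probe set. The cells were immortalized mouse embryonic fibroblasts in which both alleles of the PTIP gene, Paxip1, were floxed. A retrovirus carrying Cre recombinase gave the PTIP -/- cells, and the vector alone gave the control cells, which the labels call PTIP +/+ although their alleles are floxed. Both groups went through puromycin selection and gave 2 RNAs each, for 4 Affymetrix arrays. Each genotype has an RNA numbered 1 and an RNA numbered 2, and no separate culture, infection or clone is named for either. The p-values between the genotypes thus rest on the spread between the 2 RNAs of a genotype, which may be technical. That spread holds any difference between the replicate numbers. The p-values between the numbers rest on the spread between PTIP -/- and PTIP +/+ within a number, which holds any genotype difference. The number of arrays limits the precision of every value.

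The labels were checked on Paxip1, which read 43.5 and 74.6 in PTIP -/- replicates 1 and 2 against 1029.5 and 1040.1 in PTIP +/+: in number 1 PTIP -/- was at least 21.6-fold below PTIP +/+, and in number 2 it was 13.9-fold below. The log2 genotype difference of Paxip1 was -4.18 ± 0.36 (SE), with limma's adjusted p = 0.999 over all genes. The genotype test thus did not call even Paxip1, and a gene that did not pass is not shown to be unchanged. Of the fibroblast markers, the collagen gene Col1a2 (24095.8 to 34945.8) and Vim (30992.3 to 39291.8) were bright on all 4 arrays. Others were not: Lum, a matrix proteoglycan, lay near background (31.7 to 61.6), and Dcn, Pdgfra and Thy1 were low on some arrays. Genes with a mean signal below 47.68 were not tested, and a fold within a number or genotype against a signal below it is given as a bound. The fits and the sums over marker lists use such signals as deposited. Between 34.1% and 40.6% of probe sets on each array lay below it. All values are from pools of cells, so more cells making a gene and more RNA in each cell cannot be told apart.

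Smooth muscle cells and activated fibroblasts (myofibroblasts) pull on their surroundings with filaments of actin and myosin. Acta2, alpha smooth muscle actin, is the usual marker of the myofibroblast state, and cultured fibroblasts on rigid plastic often carry it. The genes for these proteins share regulation by serum response factor (SRF), which binds an A/T-rich sequence, the CArG box, together with myocardin or the myocardin-related factors. The latter are held in the cytoplasm by free actin monomers and enter the nucleus when filaments assemble. TGF-beta signalling is the best known inducer of the programme in fibroblasts.

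None of the 10 genes passed the test between the genotypes, and none passed between the replicate numbers, yet 3 of the 4 actins were 2-fold or more apart between the numbers. Acta1, skeletal muscle alpha-actin, was 24.7-fold higher in number 2, and Actg2, the gamma-actin of visceral smooth muscle, was 6.79-fold lower there. On their brightest probe sets Acta2, Tagln, Myl9, Tpm2 and Lmod1 differed between the numbers by 1.16-fold or less. Between the genotypes, Actc1, Actg2, Cnn1, Lmod1 and Myl9 read higher in PTIP -/- within both numbers, Tagln, Tpm2 and the brightest probe set of Acta2 lower within both, and Acta1 and Myh11 opposite in the numbers. The dimmer probe sets of Acta2 read higher within both.

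**Figure D1:**
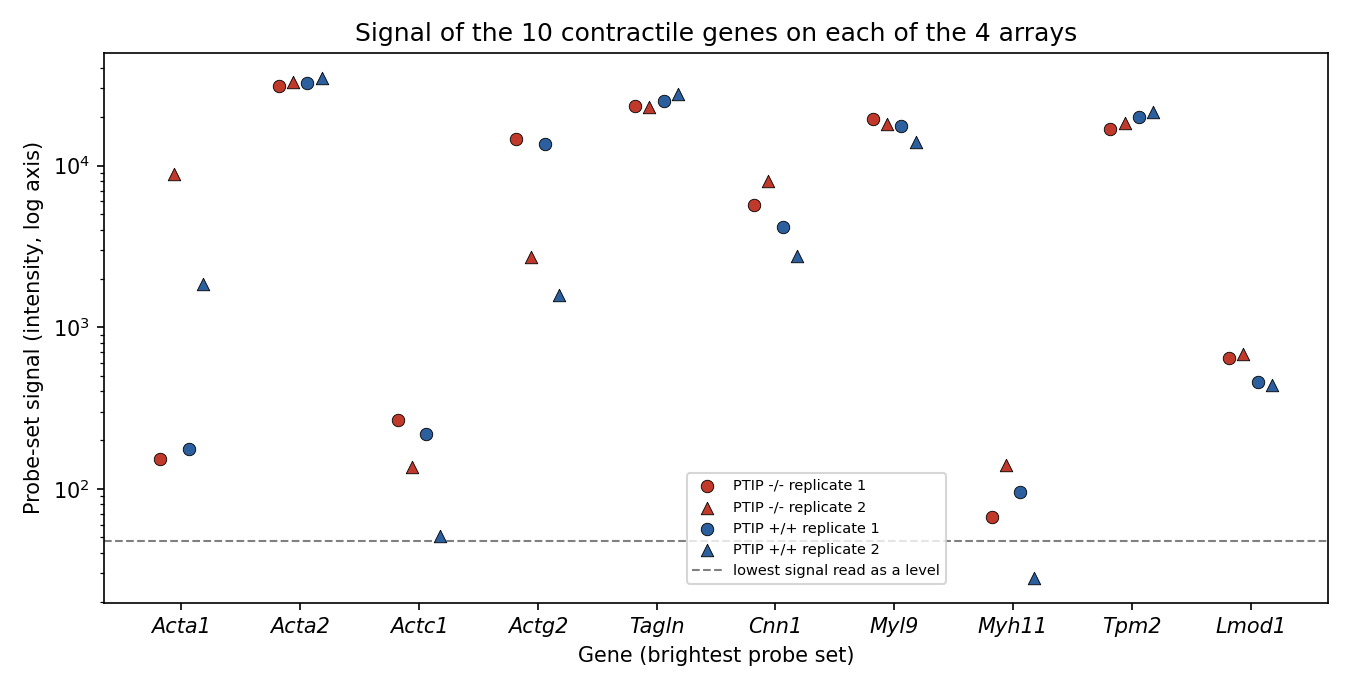
Signal of each gene's brightest probe set on the 4 arrays (intensity, log axis, 1 point an array); red is PTIP -/-, blue PTIP +/+, circles replicate 1, triangles replicate 2, and the dashed line is the 47.68 below which a signal was not read as a level. Acta1 stands at 152.8 and 175.7 in the circles and 8870.4 and 1850.3 in the triangles, and Actg2 has the circles above the triangles.

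For Acta1, the actin of the skeletal muscle sarcomere, the arrays numbered 1 read 152.8 in PTIP -/- and 175.7 in PTIP +/+, and those numbered 2 read 8870.4 and 1850.3. The numbers did not overlap, and the highest signal by far was that of PTIP -/- replicate 2. The mean log2 signal was 7.36 ± 0.14 (SD, n = 2) in number 1 and 11.98 ± 1.60 (SD, n = 2) in number 2. The difference was 4.63 ± 0.79 (SE of the moderated fit), 58.1-fold within PTIP -/- and 10.5-fold within PTIP +/+, with limma's adjusted p = 0.104 over all genes tested. With arrays centred on their medians it was 4.82, with an adjusted p = 0.0318, in a range from 0.0318 to 0.352 over the alternatives. Between the genotypes Acta1 differed little in number 1 (log2 -0.20) and was 4.79-fold higher in PTIP -/- in number 2 (log2 2.26). Averaged over the numbers this was 1.03 ± 2.35 (SE, adjusted p = 0.999), which is -1.90 without PTIP -/- replicate 2 and -0.67 without PTIP +/+ replicate 1. It was 3.96 without PTIP -/- replicate 1 and 2.73 without PTIP +/+ replicate 2, so the sign depended on which array was left out.

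Actg2 ran the other way. It read 14633.2 and 13613.6 on the arrays numbered 1, PTIP -/- first, and 2730.8 and 1584.1 on those numbered 2. The numbers did not overlap, and within each number PTIP -/- lay above PTIP +/+, by 1.07-fold and 1.72-fold. The first of these turned from 0.10 to -0.13 on the log2 scale when arrays were centred on their medians. Number 2 was lower by 5.36-fold in PTIP -/- and 8.59-fold in PTIP +/+, a mean log2 signal of 11.02 ± 0.56 against 13.78 ± 0.07 (SD, n = 2 each). The log2 difference between the numbers was -2.76 ± 0.33 (SE), and limma's adjusted p was 0.0601. The test was passed with centred arrays, with the filter at the 60th percentile, with a variance trend and with low values raised (adjusted p = 0.0211 to 0.0368). It was not passed under any of the other alternatives, for which the highest adjusted p was 0.271. The genotype difference over both numbers was 0.44 ± 1.38 (SE, adjusted p = 0.999), -0.77 without PTIP -/- replicate 1 and -1.11 without PTIP +/+ replicate 2. Without PTIP -/- replicate 2 or PTIP +/+ replicate 1 it stayed above 0, and reached 2.00.

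Actc1, the actin of heart muscle, was dim: the arrays numbered 1 read 267.0 and 218.6 and those numbered 2 read 136.6 and 51.2, again with PTIP -/- first. Like Actg2 it was lower in number 2 in both genotypes, 1.95-fold and 4.27-fold, and the numbers did not overlap. The log2 difference between the numbers was -1.53 ± 0.52 (SE, limma's adjusted p = 0.225). It was -2.24 without PTIP -/- replicate 2 and -0.82 without PTIP +/+ replicate 2. PTIP -/- lay above PTIP +/+ by 1.22-fold in number 1 and 2.67-fold in number 2 (log2 0.85 ± 0.83, SE, adjusted p = 0.999). Without PTIP +/+ replicate 2 the log2 difference was -0.19. The array with the lowest signal, PTIP +/+ replicate 2, was close to the 47.68 limit.

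Acta2 gave different answers on its 3 probe sets. The PTIP -/- signals of the brightest were 31131.3 and 32784.9, those of PTIP +/+ were 32268.2 and 34833.4, and the log2 genotype difference was -0.07 ± 0.24 (SE, limma's adjusted p = 0.999) with a number difference of 0.09 ± 0.19 (SE, adjusted p = 0.809). The genotypes overlapped, and both signs turned with quantile normalization (0.08 and -0.06). The second probe set read 1176.0 and 1003.9 in PTIP -/- against 499.1 and 363.0 in PTIP +/+, with both PTIP -/- signals above both PTIP +/+ signals. The third read 468.1 and 416.7 against 310.5 and 215.7, separated in the same way. In the fit over all 27022 probe sets above the limit, the log2 differences were 1.35 ± 0.31 (SE) for the second and 0.77 ± 0.32 (SE) for the third, both with limma's adjusted p = 1. In that fit 0 probe sets passed between the genotypes, and 0.559% passed between the numbers, none of them among the 16. Within the numbers the second was 1.24 and 1.47 higher on the log2 scale and the third 0.59 and 0.95. Taking the mean of the 3 probe sets gives 0.68 for the gene in place of -0.07.

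The brightest Acta2 probe set stood at 84.6% to 86.4% of the highest signal on its array, and between 3 and 15 probe sets were brighter. Its name carries the suffix that Affymetrix gives to probe sets whose probes can be shared by transcripts of several genes, and the muscle actins are closely related in sequence. The 100 brightest genes differed by a median of 0.14 between the genotypes and 0.11 between the numbers, without regard to sign, against 0.24 and 0.37 for all genes tested. The part that brightness or shared probes play in the flat signal of this probe set was not tested. The stretch of the gene that each of the 3 reads was not analysed here.

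**Figure D2:**
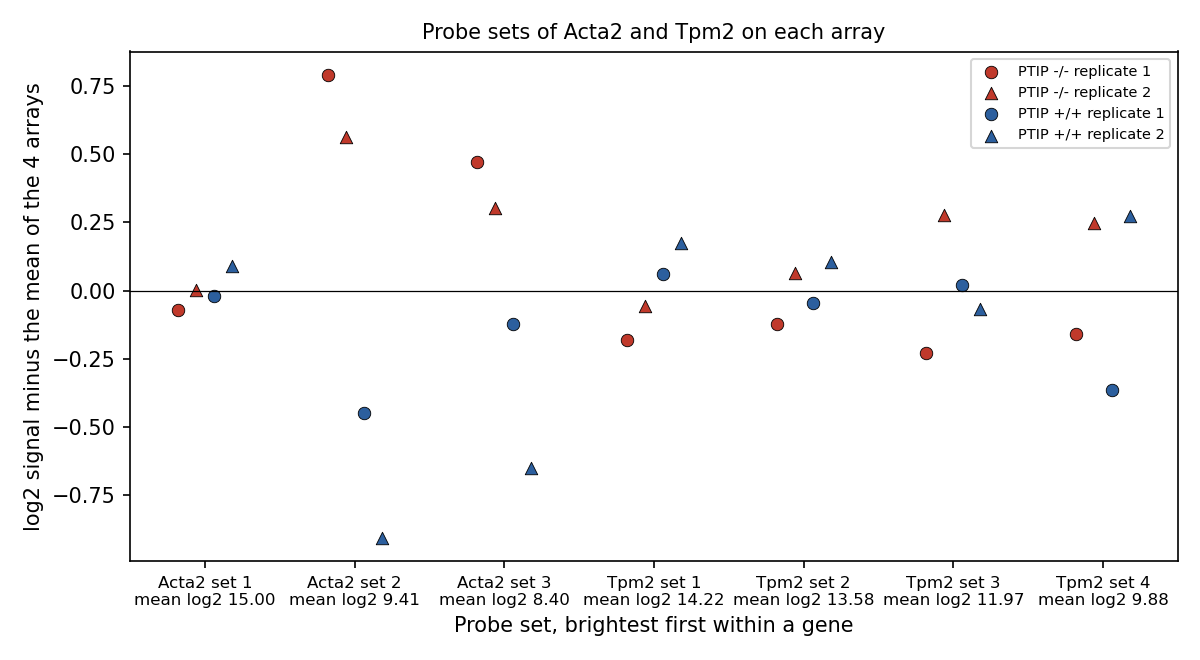
Signals of the 3 Acta2 and 4 Tpm2 probe sets on each array as log2 signal minus the mean of the 4 arrays, brightest probe set first, with the mean log2 signal under each name; colours mark the genotype and shapes the replicate number. The PTIP -/- points lie above the PTIP +/+ points in Acta2 sets 2 and 3, and not in set 1.

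RefSeq's promoter table for GRCm38.p6 held 7 of the 10 genes, and those of 3 actins that moved differently in these arrays are shown to compare their CArG boxes. Each stretch is the 250 bases before the annotated start of the gene, 5′ to 3′ on the gene's strand. Capitals mark CArG boxes (CC and GG around 6 letters that are all A or T) and those with a single G or C among the 6, a form that is its own reverse complement in outline and was therefore read once for both strands. The stretches are chr8:123894776-123895025, minus strand, for Acta1, chr19:34255374-34255623, minus strand, for Acta2 and chr2:114052876-114053125, minus strand, for Actc1.
Acta1: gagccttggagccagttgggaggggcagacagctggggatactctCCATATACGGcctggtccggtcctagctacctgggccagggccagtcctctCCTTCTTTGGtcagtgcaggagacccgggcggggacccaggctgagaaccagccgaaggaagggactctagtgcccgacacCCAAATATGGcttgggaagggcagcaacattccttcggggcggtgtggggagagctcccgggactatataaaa
Acta2: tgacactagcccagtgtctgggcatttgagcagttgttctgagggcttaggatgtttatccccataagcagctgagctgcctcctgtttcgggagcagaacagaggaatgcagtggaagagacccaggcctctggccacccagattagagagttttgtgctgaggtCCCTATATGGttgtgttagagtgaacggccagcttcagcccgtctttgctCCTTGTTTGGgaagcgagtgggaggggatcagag
Actc1: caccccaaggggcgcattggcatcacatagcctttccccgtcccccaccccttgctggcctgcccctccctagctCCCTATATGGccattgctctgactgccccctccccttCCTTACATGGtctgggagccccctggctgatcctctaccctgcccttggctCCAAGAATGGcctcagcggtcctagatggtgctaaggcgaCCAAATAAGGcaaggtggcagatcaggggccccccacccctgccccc
Counting back from the start, Acta1 had a full CArG box at -73 to -64 and forms with a single G or C at -205 to -196 and -154 to -145. Actc1 had a full box at -47 to -38 and 3 of the relaxed form. Acta2 had none in full and 2 relaxed, CCCTATATGG and CCTTGTTTGG, of which the first also stood in Actc1. Either form was present in 4 of the 7 promoters, Myl9 being the other with the full box CCTAATAAGG, and in 8.59% of all 32851 promoters of the table. The full form was in 3 of the 7 and in 1.47% of all. The hexamer CATTCC or its reverse complement GGAATG, known as the MCAT element, was in the promoters of Acta1, Acta2 and Lmod1 and in 12.6% of all. The promoter windows of Acta1, higher in number 2, and Actc1, lower there, both held a full box. A match describes these letters alone, and the windows of Cnn1, Tpm2 and Lmod1, which held no CArG box of either form, say nothing of SRF at those genes.

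Cnn1, calponin, binds actin and slows the myosin motor. It read 5736.7 and 7979.6 in PTIP -/- against 4196.2 and 2757.7 in PTIP +/+, with no overlap between the genotypes. The mean log2 signal was 12.72 ± 0.34 against 11.73 ± 0.43 (SD, n = 2 each), a difference of 0.99 ± 0.36 (SE). PTIP -/- was 1.37-fold higher in number 1 and 2.89-fold higher in number 2. By brightest probe set it was the only gene of the 10 with an unadjusted p under 0.05, as had 2.29% of all genes tested. In limma's fit over all probe sets the unadjusted p was 0.0101 for the second Acta2 probe set and 0.0493 for Cnn1. Limma's adjusted p for Cnn1 over all genes was 0.999. The difference lay between 0.69 and 1.29 with any 1 array left out and between 0.81 and 1.05 under the other alternatives. Between the numbers Cnn1 was higher in number 2 in PTIP -/- and lower in PTIP +/+ (log2 0.48 and -0.61).

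Lmod1, leiomodin, which starts new actin filaments in smooth muscle, was steadier. It read 640.3 and 679.3 in PTIP -/- against 460.3 and 435.8 in PTIP +/+, 1.39-fold and 1.56-fold higher within the numbers. The genotypes did not overlap, and both pairs of same-genotype signals lay within 1.06-fold of each other. The log2 difference was 0.56 ± 0.24 (SE, limma's adjusted p = 0.999), and it ranged from 0.38 to 0.60 over all alternatives. It was the smallest with arrays centred on their medians.

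Tagln, Tpm2 and Myl9 were among the bright genes and differed little. Tagln, transgelin, an actin cross-linker, read 23526.2 and 23003.2 in PTIP -/- against 25209.7 and 27685.2 in PTIP +/+ (log2 -0.18 ± 0.25, SE). With quantile normalization this log2 difference was -0.03, with 0 in number 1 and -0.06 in number 2. Tpm2, a tropomyosin that lies along the actin filament, read 16832.6 and 18324.6 against 19909.2 and 21520.1 (log2 -0.24 ± 0.25, SE). Both were lower in PTIP -/- without overlap, by 1.07-fold to 1.2-fold within the numbers, with limma's adjusted p = 0.999. The other 3 probe sets of Tpm2 did not show that difference: they gave -0.06, 0.05 and 0.09, with overlapping genotypes, and each changed sign with 1 of the scalings. Myl9, the regulatory light chain whose phosphorylation starts contraction, read 19284.3 and 17953.6 against 17588.3 and 14054.6 (log2 0.24 ± 0.27, SE), higher in PTIP -/- by 1.10-fold and 1.28-fold. The first of these turned to -0.10 on the log2 scale with centred arrays.

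Myh11, the heavy chain of smooth muscle myosin and the most specific marker of that cell type, stayed near background. On its brighter probe set the PTIP -/- arrays read 67.0 and 140.9 and the PTIP +/+ arrays 95.6 and 28.2. The order of the genotypes was opposite in the numbers: PTIP -/- was 1.43-fold lower in number 1 and at least 2.96-fold higher in number 2, where the PTIP +/+ signal was below the limit. Opposite signs in the numbers, as for Acta1 and Myh11, were found for 40.2% of all genes. For 14% of all genes the differences in the numbers were at least 2-fold apart, as they were for 4 of the 10 (these and Actc1 and Cnn1). Over both numbers the log2 difference was 0.90 ± 0.75 (SE, limma's adjusted p = 0.999). It was 0.53 with low values raised, 0.37 without PTIP -/- replicate 2 and 0.02 without PTIP +/+ replicate 2. Without PTIP -/- replicate 1 or PTIP +/+ replicate 1 it was 1.44 and 1.78. The second probe set, at 4.5 to 16.1 on the 4 arrays, was below the limit on all of them and was the 1 probe set of the 16 that was not tested.

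**Figure D3:**
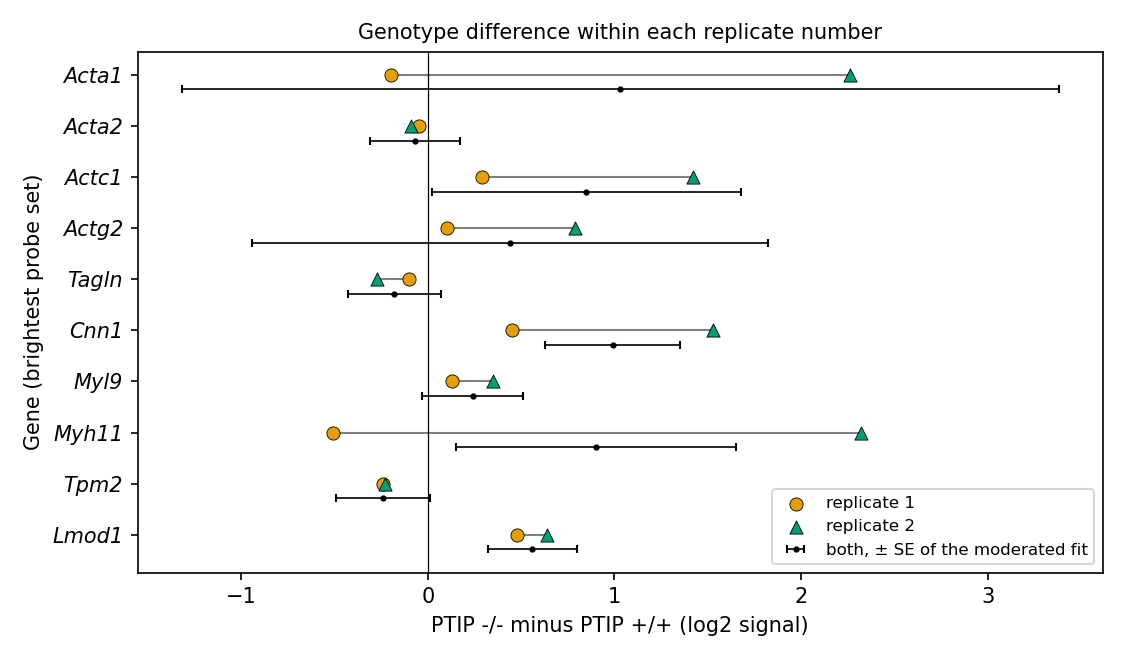
Difference in log2 signal between PTIP -/- and PTIP +/+ for each gene's brightest probe set, within replicate 1 (circles) and replicate 2 (triangles), with the mean of both and its standard error from the moderated fit in black. The triangles of Acta1, Actc1, Cnn1 and Myh11 lie at 1.42 or more, and all circles lie between -0.51 and 0.48.

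The counts that follow use each gene's brightest probe set. As a group, 7 of the 10 genes were higher in PTIP -/- and 3 lower, against 56.1% and 43.9% of all genes tested. The median log2 difference was 0.50, against 0.05 for all genes. It was 0.03 in number 1 and 0.71 in number 2. No gene of the 10 differed by 2-fold or more in number 1 and 4 did in number 2, where all genes gave 6.23% and 11.9%. Over both numbers 1 gene, Acta1, reached 2-fold, against 5.42% of all genes. The second Acta2 probe set, which these counts leave out, was 2.36-fold and 2.77-fold higher in PTIP -/- within the numbers and 2.55-fold over both. The third Acta2 probe set stayed below 2-fold. The difference was larger in number 2, without regard to sign, for 9 of the 10 genes and for 61.4% of all genes. With arrays centred on their medians the group's median was 0.32, with -0.21 in number 1 and 0.59 in number 2, and the median of all genes moved to -0.13, with 4439 genes higher and 8070 lower. Counts were 7 higher and 3 lower there too, and 8 and 2 with quantile normalization, in which Acta2 turned. The signals did not overlap between the genotypes for 5 of the 10, Cnn1, Lmod1 and Myl9 being higher and Tagln and Tpm2 lower, and for 28.6% of all genes (16.6% higher and 12.1% lower). With limma 0 of the 10 passed, as did 0% of all genes tested, of which 286 had an unadjusted p under 0.05. Paxip1 did not pass either. With 2 arrays against 2, the smallest two-sided p that an exact permutation test can give is 0.333.

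Between the numbers, 3 of the 10 genes, Acta1, Actg2 and Actc1, differed by 2-fold or more averaged over the genotypes, against 13.4% of all genes. All 3 are actins, had an unadjusted p under 0.05, as had 20.4% of all genes, and kept their direction in both genotypes. The signals did not overlap between the numbers for 4 of the 10, these and the bright Acta2 probe set, against 55.2% of all genes. Acta1 and Acta2 were the higher ones in number 2 (25.5% of all genes) and Actc1 and Actg2 the lower ones (29.7%). The median difference of the group, without regard to sign, was 0.17 and that of all genes 0.37. None of the 10 passed, where 0.656% of all genes did, 0.488% higher and 0.168% lower in number 2.

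**Figure D4:**
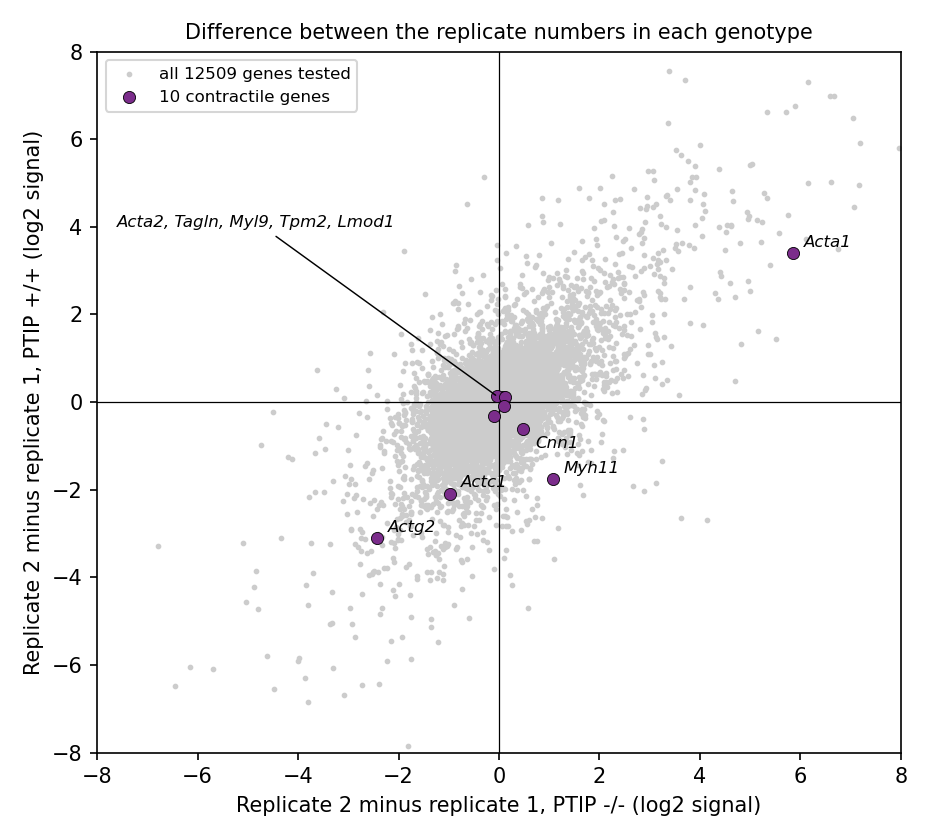
Difference in log2 signal between replicate 2 and replicate 1 within PTIP -/- (horizontal) and PTIP +/+ (vertical) for the 10 genes and, in grey, all 12509 genes tested, of which 22 lie outside the plotted range. Acta1 lies at 5.86 and 3.40 and Actg2 at -2.42 and -3.10, Actc1 below 0 on both axes, Cnn1 and Myh11 on opposite sides of 0, and the other 5 near the origin.

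SRF and its partners were evenly divided by genotype. Srf itself stood at 2075.6 and 2004.5 in PTIP -/- against 2006.3 and 2369.1 in PTIP +/+ (log2 -0.10 ± 0.25, SE), turning from above to below 0 between number 1 and number 2. The myocardin-related factors Mrtfa and Mrtfb differed by -0.08 ± 0.44 and 0.17 ± 0.24 (SE). Mrtfa was higher in number 2 in both genotypes (log2 0.66 and 0.82). Myocd, myocardin, read at most 58.5 and was above the limit only in PTIP +/+ replicate 1. Of 16 tested genes of this list, 8 were higher and 8 lower in PTIP -/-, with a median of 0.03. Centring the arrays gave 5 and 11 and a median of -0.15, where all genes gave 4439 and 8070 and a median of -0.13. Klf4, which represses smooth muscle genes, was 3.27-fold and 4.01-fold lower in PTIP -/- within the numbers (log2 -1.86 ± 0.61, SE), the farthest of the list. Csrp2, a LIM protein of smooth muscle, read 3197.7 and 1916.6 against 2287.4 and 336.5, higher by 1.40-fold in number 1 and 5.70-fold in number 2. Mef2c, a muscle transcription factor, was 3.52-fold higher in number 2 than in number 1. None of the 16 passed either test.

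In a wider list of smooth muscle genes, 13 of 19 tested were higher in PTIP -/- and 6 lower, with a median of 0.25 and of 0.27 within each number. Of all genes 56.1% were higher, with a median of 0.05. With centred arrays the list gave 11 and 8 and a median of 0.08, and all genes 4439 and 8070 and a median of -0.13. Mylk, the kinase that phosphorylates Myl9, read 468.6 and 160.2 against 223.0 and 94.0, 2.10-fold and 1.70-fold higher in PTIP -/- (log2 0.92 ± 0.73, SE). It was also 2.63-fold lower in number 2. Kcnmb1, a potassium channel subunit of smooth muscle, was 1.83-fold and at least 2.30-fold higher in PTIP -/-. Itga8, an integrin chain of contractile mesenchyme, went the other way, at 1215.4 and 1375.8 against 5179.8 and 4365.4 (log2 -1.88 ± 0.26, SE, limma's adjusted p = 0.999). Ppp1r14a, an inhibitor of myosin phosphatase, followed the numbers, with 390.3 and 338.7 in number 1 and 48.1 and 78.2 in number 2 (log2 -2.57 ± 0.31, SE, adjusted p = 0.0612). None of the 19 passed either test.

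Non-muscle actin genes were close to level between the genotypes. Actb and Actg1, the cytoplasmic actins, differed by -0.19 ± 0.26 and -0.14 ± 0.29 (SE), and 9 of 24 tested genes were higher and 15 lower, with a median of -0.07. Quantile normalization gave 15 higher and 9 lower, and median centring 3 and 21. All genes gave 6337 and 6172 with the first and 4439 and 8070 with the second. Between the numbers 20 of 24 were higher in number 2, with a median of 0.19 where that of all genes was -0.05. Of all 12509 genes 5777 were higher in number 2. Myl12b, a non-muscle light chain, was 4.19-fold and Myh10, a non-muscle myosin heavy chain, 2.52-fold higher in number 2. By genotype the farthest were Tmod3, a filament capper (log2 -0.62 ± 0.43, SE), and Lima1, which bundles actin (0.54 ± 0.39, SE), both with most of the difference in number 2. None of the 24 passed either test.

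The TGF-beta list was even between the genotypes, 9 of 18 tested on either side with a median of 0.02, and 5 higher and 13 lower with centred arrays. With centred arrays all genes gave 4439 higher and 8070 lower. Tgfb1 read 301.4 and 863.9 in PTIP -/- against 294.6 and 253.9, nearly level in number 1 and 3.40-fold higher in number 2. Tgfb2 and Tgfb3 differed by 0.04 ± 0.48 and -0.13 ± 0.40 (SE). Tgfbi, a secreted protein named for its induction by TGF-beta, read 301.0 and 2206.2 against 153.5 and 117.8, 1.96-fold and 18.7-fold higher in PTIP -/- (log2 2.60 ± 1.03, SE). The co-receptor Tgfbr3 was lower, at -1.92 ± 0.30 (SE). Between the numbers 13 of the 18 were higher in number 2, with a median of 0.66. Of all 12509 genes 5777 were higher there, with a median of -0.05. Among the 13 were the inhibitory Smad6 at 1.68 ± 0.26 (SE) and Ltbp2, a latent TGF-beta binding protein relative, at 1.69 ± 0.55 (SE). None of the 18 passed either test.

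Most markers of skeletal muscle lay below the limit, where Acta1 was high as where it was low. Of 19 skeletal muscle markers 10 were below the limit on all 4 arrays and 1, Ckm, was tested (162.0 and 164.4 in PTIP -/-, 123.1 and 85.2 in PTIP +/+). The muscle regulators read 26.7 to 57.8 for Myod1, 8.7 to 52.6 for Myog and 0.5 to 10.1 for Myf5. The list summed to 586.4 in PTIP -/- replicate 1, 905.8 in PTIP -/- replicate 2, 445.6 in PTIP +/+ replicate 1 and 611.9 in PTIP +/+ replicate 2. These sums mix signals above and below the limit. Myh1, a skeletal muscle myosin that was picked out for its values, stood at 277.2 and 138.8 in number 2 against 14.6 and 3.6 in number 1, at least 5.81-fold and 2.91-fold higher within the genotypes. It made up 277.2 and 138.8 of the list's sums in number 2. Tnni2, a skeletal muscle troponin, was also higher in number 2, at 46.2 and 153.5 against 10.4 and 17.3, above the limit only in PTIP +/+ replicate 2. Myh3, Myh8, Myl1 and Neb were higher in number 2 too, but below the limit on all arrays. Others of the list ran the other way. Chrna1, a subunit of the muscle acetylcholine receptor, read 75.2 and 55.6 in number 1 and 49.2 and 11.2 in number 2. Ckm differed by -0.25 on the log2 scale, and Myog, above the limit only in PTIP +/+ replicate 1, by -1.81. Myh4, below the limit on all arrays, differed by -1.03. Among heart muscle markers, 5 of 14 were below the limit on all arrays. Tnnt2, cardiac troponin T, read 299.5 and 884.5 in number 1 and 20.5 and 11.3 in number 2, at least 6.28-fold and 18.6-fold lower in number 2. Nppb, a natriuretic peptide gene, was higher in number 2 by 8.43-fold in PTIP -/- and 1.79-fold in PTIP +/+. Nkx2-5, a heart transcription factor, and Mybpc3, a sarcomere protein, differed by 0.60 ± 0.66 and 0.40 ± 0.26 (SE) between the genotypes on the log2 scale. The heart muscle list summed to 1253.9 and 1604.3 in PTIP -/- and 1740.2 and 1008.3 in PTIP +/+.

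Other lineage markers also differed between the numbers. The fibroblast surface markers Thy1 (14822.9 and 16080.1 in number 1, 1500.7 and 239.2 in number 2) and Pdgfra (3563.4 and 5010.1, then 174.2 and 583.2) were lower in number 2, as was Dcn (242.7 and 1266.0, then 18.7 and 84.5). The fibroblast list as a whole was divided, with 6 of 11 tested genes higher and 5 lower in number 2 and a median of 0.05, Fbln1 being higher by 1.14 on the log2 scale and Col1a1 by 0.30. The pericyte marker Rgs5 was at 46.9 and 20.2 on the arrays numbered 1 and at 1451.3 and 137.0 on those numbered 2, while Mcam stood at 1334.3 or above on the other 3 arrays and at 117.4 in PTIP +/+ replicate 2. The pericyte list summed to 7623.9 and 8307.5 in PTIP -/- and 8207.7 and 8623.2 in PTIP +/+. Its members Abcc9, Kcnj8 and Higd1b were below the limit on all arrays. The fibroblast list summed to 178284.1 and 162587.3 in PTIP -/- and 190848.9 and 202498.5 in PTIP +/+, 8 of 11 tested genes being lower in PTIP -/- (7 with quantile normalization and 10 with centred arrays). Of all genes 43.9% were lower in PTIP -/-, and 8070 of 12509 were with centred arrays. Endothelial, epithelial and blood cell lists were dim, with sums of 242.7 to 448.6, 552.8 to 977.9 and 601.0 to 1181.3. Pecam1, Tie1 and Cdh1 were below the limit on every array, Epcam read 220.4 to 436.1, and Lyz2, a macrophage marker, was lower in number 2 by 3.34-fold in PTIP -/- and at least 3.22-fold in PTIP +/+. The log2 genotype differences of Kdr, Cdh5, Krt5, Krt14, Cd14 and Cd68 lay between -0.51 and 0.57. None of the tested markers passed either test. What part these differences in cell markers have in the signals of the 10 genes was not tested.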

How the data were processed

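Gene expression was measured on 4 Affymetrix arrays. The deposited values are linear probe-set intensities. The submitters' processing notes name RMA, but the deposited intensities are linear and have a trimmed mean of 500 on each array (top and bottom 2% left out), which is what scaling to a common mean gives. No background correction or software version is given in those notes.

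The values were log2-transformed, with the only 0 replaced by 0.1, and the 64 control probe sets were left out. Symbols came from the platform annotation (34945 probe sets with 1 symbol, 932 with several, 9160 with none). For 34741 of those with 1 symbol the RefSeq (GRCm38.p6) symbol was used, whether or not it differed. A gene took its brightest probe set and was tested if its mean signal was at or above 47.68, the 40th percentile over probe sets, which also served as the lowest readable signal. Where all arrays of the dimmer side lay below it, the fold is against it and given as "at least". Genotypes, and separately replicate numbers, were compared in limma 3.58.1 (R 4.3.3) on all 4 arrays with no covariate and 2 residual degrees of freedom. The p-values are two-sided, adjusted by Benjamini-Hochberg over all genes, threshold 0.05. The fit was checked on simulated data for the size of planted differences. How many planted genes it called is not given here. Comparisons of single arrays carry no test. The genes named were all 10 members, Paxip1, 9 regulators and actins of a set list and, as no listed gene passed, the 2 with the largest difference by genotype and by number in each list. One further gene list is not reported here. Others were chosen after their values were seen. The members and lists were chosen with earlier results of these data known. Alternatives were quantile normalization, median centring, other filters, a variance trend, averaging over probe sets, raised low values, a block or genotype term, and each array left out.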

Additional observations from a re-analysis of the deposited data

Results flagged for a closer look

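For 2 of the 10 genes the genotype difference had opposite signs in the replicate numbers. Acta1 differed by -0.20 on the log2 scale in number 1 and by 2.26 in number 2, and Myh11 by -0.51 and 2.32. Each of these sets 1 array against 1, so whether the numbers differ was not tested. Of all genes tested, 40.2% had opposite signs in the numbers, and 14% had genotype differences at least 2-fold apart between them, as had Acta1, Myh11, Actc1 and Cnn1 (2.46, 2.83, 1.13 and 1.08 on the log2 scale).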

How the results depend on the processing

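No gene passed the genotype test in limma under any alternative run over genes (0, with 286 genes at an unadjusted p under 0.05 as given and 164 to 982 over the alternatives). Over all probe sets only the replicate block was tried, and it too gave 0. Over genes the replicate block gave 0, with 982 at an unadjusted p under 0.05. The labels do not say that the numbers pair the RNAs. The difference between the numbers in the 2 genotypes correlated across genes at 0.686, with genes not independent, and only 2 pairs exist. The count called between the numbers moved by over 1.5 times under 9 of 12 alternatives. It was 82 as given, 130 with quantile normalization, 361 with median centring, 0 without the level filter (2505 at an unadjusted p under 0.05), 145 with the 60th percentile filter, 284 with a variance trend and 226 with low values raised. It was 68 with averaging over probe sets, 80 with genotype as a term and between 0 and 85 with 1 array left out: 85 without PTIP -/- replicate 2 and 0 without any of the other 3. Over all probe sets it was 151, and 96 with genotype as a term. Among the members, quantile normalization turned Acta2 by genotype (0.08) and Acta2 and Tagln by number (-0.06 and -0.03). Averaging over probe sets turned Acta2 in both (0.68 and -0.20), median centring turned Cnn1 by number (0.13) and raising low values Myh11 by number (0.03). Leaving out 1 array gave genotype differences of -1.90 to 3.96 for Acta1, -0.19 to 1.90 for Actc1 and -1.11 to 2.00 for Actg2. Number differences were then -0.83 to 0.70 for Cnn1, -0.32 to 0.32 for Lmod1, -1.50 to 0.82 for Myh11, -0.08 to 0.18 for Tagln and 0 to 0.24 for Tpm2. The causes were not tested. Leaving out an array also leaves the numbers unequal between the genotypes, and the lone array of a group is taken to vary like the others. Detection calls were not used here, so the reading of Actc1 and Myh11 is limited by the choice of 47.68 as the lowest level.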

Other observations

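Genes whose log2 profile over the 4 arrays lay nearest to that of a member were found by Euclidean distance between profiles centred on each gene's own mean, over 12509 genes. The nearest to Acta2 were Hnrnpc, Ccm2, Vps18 and Matr3 (distances 0.0169 to 0.0247), and to Tagln Rps28, Fam220a, Dhx16 and Tmem29 (0.00815 to 0.0338). These are nearly flat profiles, with genotype differences of -0.20 to -0.07 on the log2 scale. The same measure was applied to Acta1 and Actg2 after their values were seen. For Actg2 the nearest was Dpt, dermatopontin, a matrix protein, at a distance of 0.0264, with 868.0 and 789.6 in number 1 and 159.8 and 91.9 in number 2, PTIP -/- first. Nav3, P4ha3 and Lgals9 followed at 0.232 to 0.319. For Acta1 the nearest were farther away, at 1.08 to 1.16: the transcription factor Maf, the extracellular superoxide dismutase Sod3, Itih2 and the cofilin phosphatase Ssh3. Maf read 95.5 and 74.2 in number 1 and 2172.5 and 1102.5 in number 2. Sod3 and Ssh3 were below 47.68 on both arrays numbered 1. These genes were picked for their likeness to Acta1, so their number differences are not a separate result. Nearness over 4 arrays is a description of these arrays.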
